A study of Mus musculus with 4 samples.

Results

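Major histocompatibility complex (MHC) class II genes were followed in mouse carotid arteries after wire injury. The set was chosen by name and comprised 10 of the 31053 genes listed, all of which were found. It held the classical chain genes H2-Aa, H2-Ab1 and H2-Eb1, the invariant chain gene Cd74, the regulator gene Ciita, the peptide editor genes H2-DMa, H2-DMb1 and H2-DMb2, and the genes of its inhibitor, H2-Oa and H2-Ob. The data were 4 single-cell RNA libraries of carotid arteries from male C57BL/6 mice, with 1 library each for the uninjured vessel (day 0) and for days 3, 7 and 14 after injury. Mice were 11 weeks old at injury, the left carotid was injured by passing a wire through it, and arteries of several mice were pooled in each library after vessels with a thrombus had been removed. Each group was therefore 1 pool without a replicate, so that a difference between days cannot be told apart from a difference between libraries, and no test was run. Intervals given below are 95% intervals for counting error only.

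Class II molecules display peptides from the endosome to CD4 T cells and are constitutive on dendritic cells, B cells and many macrophages. The invariant chain fills the groove of a new class II dimer and guides it to the endosome, where H2-DM exchanges the remaining fragment for a peptide, and H2-O restrains H2-DM. Ciita is the coactivator that switches on the classical chain genes, Cd74 and the H2-DM genes. It is active constitutively in dendritic and B cells, and on interferon-gamma in many other cells, including those of the vessel wall. C57BL/6 mice lack a functional chain to pair with the product of H2-Eb1, whose RNA is nevertheless made.

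The promoters of class II genes are known to share an X box, bound by the RFX complex, and a Y box, bound by NF-Y, onto which Ciita assembles. Promoter windows from RefSeq on GRCm38.p6, from 250 bases before to 50 bases after each start, matched 7 of the 10 genes (H2-Aa, H2-Eb1, H2-DMa, H2-DMb1, H2-DMb2, H2-Oa and H2-Ob). A Y-box letter run, GATTGG, that followed an X-box-like run, CNNNNAAC, after 15 to 35 bases was searched on both strands, in a form and with a spacing chosen after these windows had been read. The pair was present in 6 of these 7 genes and in 337 of all 32851 windows, or 1.03%, whereas GATTGG alone was present in 16.1% of all windows. Of H2-DMa, no window held the pair. The stretches below lie within the class II region of chromosome 17. They are shown because these boxes are how class II genes are held to answer to 1 regulator, whose level is given below beside theirs. Capitals mark the X-box-like and Y-box letters, and each stretch is written 5′ to 3′ on the strand of its gene.
H2-Aa: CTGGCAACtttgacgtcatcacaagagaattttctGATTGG
H2-Eb1: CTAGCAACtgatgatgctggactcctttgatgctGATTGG
H2-DMb1: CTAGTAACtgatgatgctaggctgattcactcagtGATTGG
H2-DMb2: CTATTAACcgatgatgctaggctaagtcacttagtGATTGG
H2-Oa: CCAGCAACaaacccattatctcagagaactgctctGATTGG
H2-Ob: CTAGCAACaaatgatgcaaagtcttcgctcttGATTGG
The stretch of H2-Aa lies at chr17:34287867-34287907 on the minus strand, with its Y box 49 bases before the start. The others lie on the plus strand, those of H2-Eb1 at chr17:34305773-34305812, H2-DMb1 at chr17:34153094-34153134, H2-DMb2 at chr17:34145123-34145163, H2-Oa at chr17:34092300-34092340 and H2-Ob at chr17:34238815-34238852. The letters between the pair numbered 27 in H2-Aa, H2-DMb1, H2-DMb2 and H2-Oa, 26 in H2-Eb1 and 24 in H2-Ob. H2-Oa held 2 overlapping matches, and the one farther from the start is shown. A match describes letters in the window and is not evidence of a bound site.

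The libraries of days 0, 3, 7 and 14 held 281, 1403, 2693 and 1029 cells after filtering, with a median of 7959, 5451, 6347 and 10750 unique molecular identifiers (UMIs) per cell. Between libraries, 217 cell barcodes were shared, and 214 shallow copies of such barcodes were removed before any value below was computed. Clusters were named for their resemblance to a cell type from marker genes. Fibroblast-like clusters expressed 9 or 10 of 10 markers of their type, endothelial-like and neutrophil-like cells 8 of 8, mature and type 1 dendritic (cDC1)-like cells 7 of 7, and type 2 dendritic (cDC2)-like cells 4 or 5 of 6. Cells that could not be named numbered 8, 74, 438 and 62 over the 4 days. Smooth muscle-like cells were few at day 0, with 11 cells, and myeloid cells nearly absent, with 4 monocyte/macrophage-like cells, so that courses of immune classes start at day 3. Levels are given as UMIs of a gene per 1000000 UMIs (CPM) in the summed cells of a class and day. They are not compared between genes, except in the ratio of H2-DMb1 to H2-DMa UMIs, which is set beside that of other classes.

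To map class II RNA across the tissue, the 4 most abundant genes (H2-Aa, H2-Ab1, H2-Eb1 and Cd74) were summed. At day 7 the sum was 48625 CPM in cDC2-like cells, 43130 in cDC1-like, 27132 in mature dendritic-like, 24681 in monocyte/macrophage-like and 23180 in B cell-like cells. It was 6632 CPM in plasmacytoid dendritic-like cells. Then came the classes that do not present antigen by trade, with 2717 CPM in neutrophil-like, 1601 in endothelial-like, 585 in NK cell-like, 379 in fibroblast-like, 297 in T cell-like and 207 in smooth muscle-like cells. The sum thus fell from cDC2-, cDC1- and mature dendritic-like through monocyte/macrophage- to B cell-like cells. The least of these 5 presenting classes stood far above the highest of the last 6. Plasmacytoid dendritic-like cells lay between them. Among the last 6, vessel wall classes were interleaved with neutrophil-, NK cell- and T cell-like cells. The order of the last 6 rested in part on single barcodes. Without the barcode richest in class II in each class, the sum was 754 CPM in neutrophil-like, 689 in endothelial-like, 455 in NK cell-like, 298 in T cell-like, 185 in smooth muscle-like and 131 in fibroblast-like cells, which then came last. Without replicates, neighbours in this order, such as the monocyte/macrophage-like (24578 to 24785 CPM) and B cell-like cells (21895 to 24521 CPM), were not called different.

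**Figure D1:**
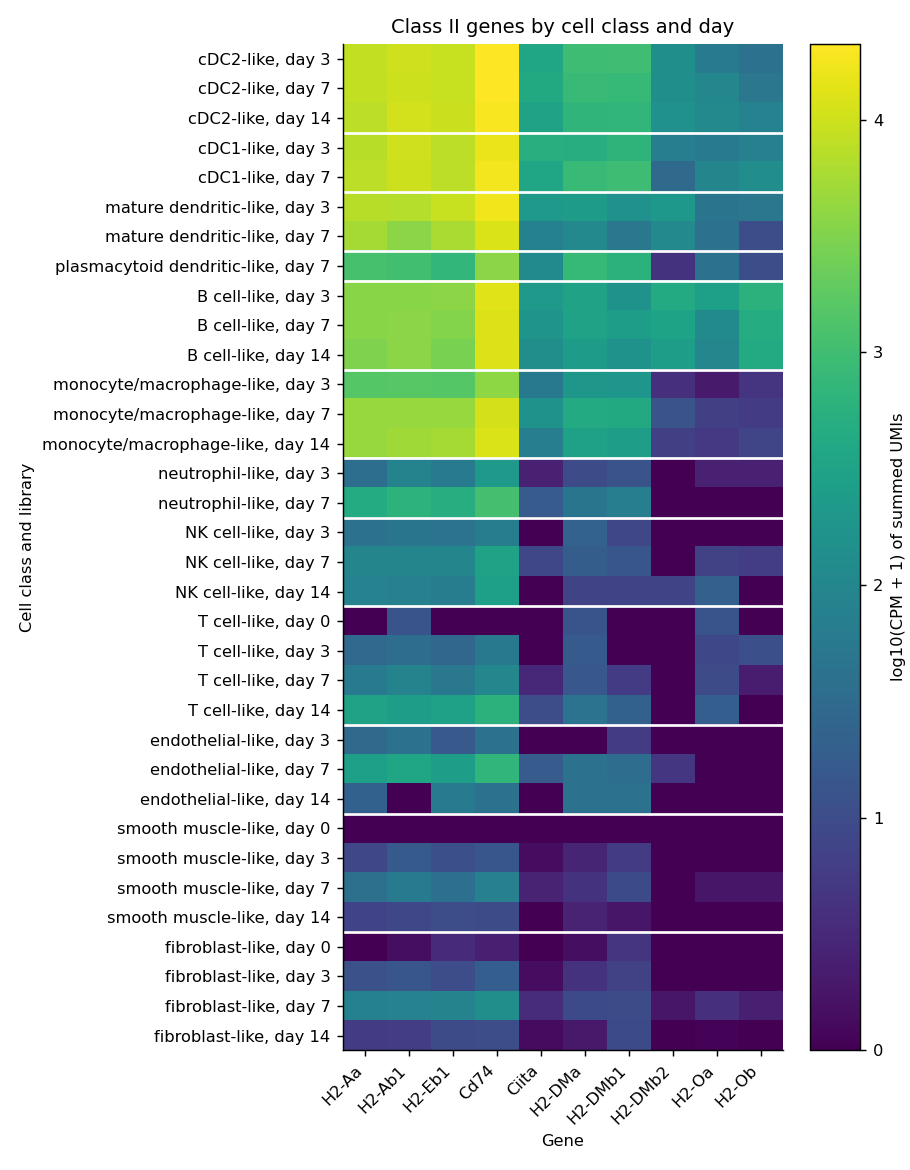
Heat map of the 10 class II genes (columns) in every cell class and day with at least 10 cells (rows), coloured by log10(CPM + 1) of summed UMIs. Dendritic, B and monocyte/macrophage-like rows are bright for the 4 abundant genes at days 3, 7 and 14, and the columns of H2-DMb2, H2-Oa and H2-Ob are darker in monocyte/macrophage-like than in cDC2- and B cell-like rows.

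The source of the class II RNA moved from dendritic to macrophage cells over the course. Of the UMIs of the 4 genes at day 3, 78.5% (78.3 to 78.6%) came from cDC2-, cDC1- and mature dendritic-like cells, which made up 14.5% of the cells. That share was 49.97% (49.8 to 50.1%) from 14.1% of the cells at day 7 and 33.6% (33.2 to 33.9%) from 5.83% at day 14. Monocyte/macrophage-like cells gave 20.6%, 46.9% and 61.4% on the same days, while their share of the cells was 35.6%, 32.2% and 16.5%. The rise in their share of the RNA therefore ran against their share of the cells. At day 0, 521 of only 538 UMIs came from the 4 monocyte/macrophage-like cells. Fibroblast-, smooth muscle- and endothelial-like cells together gave 0.215%, 0.799% and 0.473% at days 3, 7 and 14, although they were 18.3%, 11.8% and 57.0% of the cells. Without the barcode richest in class II in each of these classes the shares were 0.192%, 0.320% and 0.388%, so that day 7 was then not the highest. These shares depend on how cells are sorted into classes, and clustering each library alone gave 35.2% for dendritic and 55.2% for monocyte/macrophage-like cells at day 7.

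Monocyte/macrophage-like cells carried about 3 times more class II RNA at days 7 and 14 than at day 3. The antigen-binding chain gene H2-Aa was measured at 1554, 4489 and 4512 CPM in the libraries of days 3, 7 and 14. Its partner H2-Ab1 was at 1593, 4555 and 5060 CPM, and H2-Eb1 at 1512, 4602 and 5564 CPM. The invariant chain gene Cd74 was at 3973, 11036 and 12070 CPM. For each of these genes the step lay between days 3 and 7, with ratios of 2.89 (2.82 to 2.96) for H2-Aa, 2.86 (2.79 to 2.93) for H2-Ab1, 3.04 (2.97 to 3.12) for H2-Eb1 and 2.78 (2.74 to 2.82) for Cd74. From day 7 to day 14, Cd74 stood at a ratio of 1.09 (1.08 to 1.11).

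The regulator followed another course. Ciita was at 54.5, 160 and 68.5 CPM in the libraries of days 3, 7 and 14. It was thus high at day 7 alone, with a ratio of 2.93 (2.57 to 3.36) from day 3 to day 7 and of 0.429 (0.346 to 0.527) from day 7 to day 14, when the chains were as high as before over the whole class. The H2-DM genes, whose products load the peptide, lay between these courses. H2-DMa was at 193, 444 and 294 CPM and H2-DMb1 at 183, 419 and 261 CPM, with ratios from day 7 to day 14 of 0.663 (0.598 to 0.733) and 0.622 (0.558 to 0.693). The inhibitor genes stayed low on every day, with H2-Oa at 1.03, 5.51 and 4.24 CPM and H2-Ob at 3.71, 4.94 and 7.07 CPM.

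A gene was called higher or lower when its level differed at least 2-fold after 10 CPM had been added to both sides. Of the 10 class II genes, 7 were higher in monocyte/macrophage-like cells at day 7 than at day 3, namely H2-Aa, H2-Ab1, H2-Eb1, Cd74, Ciita, H2-DMa and H2-DMb1, whereas 1.25% of all genes measured were. The median log2 ratio was 1.28 over the class II genes and −0.08 over all genes. H2-DMa and H2-DMb1 were close to the threshold and fell below it under several alternatives. Between days 14 and 3, 4 of 9 were higher (2.46% of all genes), the 3 classical chain genes and Cd74, and between days 14 and 7 only Ciita was lower (1.26% of all genes).

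The share of monocyte/macrophage-like cells with class II RNA was compared after each cell had been thinned to 1000 UMIs. At least 1 UMI of the 4 genes was seen in 66.6% (62.2 to 70.8%) of cells at day 3, 87.6% (85.2 to 89.8%) at day 7 and 83.2% (76.1 to 88.9%) at day 14, against 92.0%, 98.2% and 94.7% before thinning. Ciita was seen in 5.98%, 17.4% and 4.20% (1.56 to 8.91%) of thinned cells, the last from 6 cells. At 2000 UMIs these shares were 9.93%, 26.0% and 14.3% (8.69 to 21.6%), so that day 7 was highest at both depths whereas the order of days 3 and 14 changed. Single cells varied widely, and the middle 50% of the cells ranged from 281 to 12764 CPM for the 4 genes at day 3, from 2271 to 38430 CPM at day 7 and from 2465 to 53562 CPM at day 14.

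Both the make-up of the class and the level within its clusters differed between days. Clusters were built without the class II genes. A cluster led by Plac8 and Chil3 made up 14.4% of the class at day 3 and 47.9% at day 7. A cluster led by Ms4a7 and Apoe made up 7.01% at day 3, 27.3% at day 7 and 59.4% at day 14. Within both clusters Cd74 was higher at day 7 than at day 3, from 7485 to 11936 CPM in the Plac8/Chil3 cluster and from 7220 to 12190 CPM in the Ms4a7/Apoe cluster. These within-cluster ratios of 1.60 (1.54 to 1.65) and 1.69 (1.63 to 1.75) were smaller than the ratio of 2.78 over the whole class, whose make-up also differed between the days. The steepest courses belonged to a cluster led by the interferon-induced genes Ifit1 and Ifit3, in which Cd74 went from 2200 CPM in 34 cells to 18483 CPM in 39 cells, a ratio of 8.40 (7.83 to 9.02), and to one led by Ccl12 and Pf4, with 228 and 3307 CPM in 15 and 21 cells. The lower Ciita at day 14 was also present within the Ms4a7/Apoe cluster, at a ratio to day 7 of 0.457 (0.346 to 0.595). Between clusters, Cd74 at day 14 was not alike. It was 12681 CPM in the Ms4a7/Apoe cluster, 22134 CPM in one led by Bpgm and C1qc, at a ratio to day 7 of 2.56, and 7374 CPM in the 14 cells of the Plac8/Chil3 cluster. In these 14 cells Cd74 stood at a ratio to day 7 of 0.618 (0.579 to 0.658), H2-Aa at 0.541 and Ciita at 0.343 (0.164 to 0.635).

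**Figure D2:**
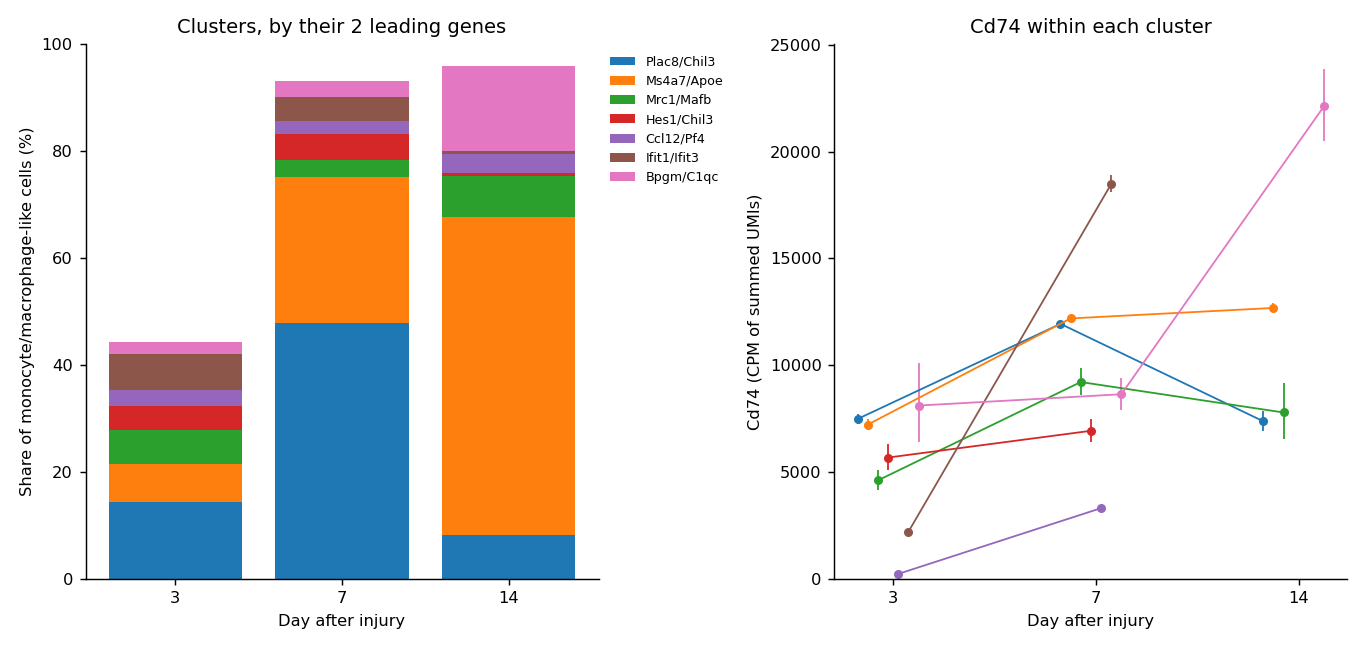
Left, stacked bars give the share (%) of monocyte/macrophage-like cells in the clusters drawn at days 3, 7 and 14; right, points give Cd74 (CPM of summed UMIs) in each cluster and day with at least 10 cells, with 95% Poisson intervals. The Plac8/Chil3 share goes from 14.4% to 47.9% between days 3 and 7, the bars do not sum to 100% because not every cluster is drawn, and the Cd74 point of day 7 lies above that of day 3 in every cluster drawn at both days.

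Type 2 dendritic (cDC2)-like cells did not show this course, although the make-up of this class also differed between days. A cluster led by Cd209a, Clec10a and Ccl17 held 13 of 169 cells at day 3 and 123 of 308 at day 7. One led by Acp5 and Mgl2 held 63 and 39 cells on these days. In cDC2-like cells, H2-Aa was at 8464, 8392 and 7707 CPM at days 3, 7 and 14, H2-Ab1 at 10479, 10010 and 10694 CPM, and H2-Eb1 at 9313, 9049 and 9638 CPM. Cd74 was at 21175, 21174 and 19201 CPM, and Ciita at 354, 422 and 315 CPM. H2-DMa was at 964, 848 and 670 CPM and H2-DMb1 at 1008, 780 and 696 CPM. The 3 libraries thus lay close together for the chains, and none of the 10 genes was called higher or lower between any pair of days, where between 1.13% (day 7 against day 3) and 3.57% (day 14 against day 3) of all genes were higher and between 0.686% and 2.76% lower. For day 14 against day 7 these shares were 3.24% and 2.04%. Among the cDC2-like clusters, the one with cell-cycle genes had the lowest Cd74 at both days, with 13642 and 16555 CPM at days 3 and 7, against 25501 and 22731 CPM in the largest cluster, led by Cd209a and Clec10a.

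The distance between cDC2-like and monocyte/macrophage-like cells narrowed accordingly. At day 3 all 10 genes were higher in cDC2-like cells, against 2.24% of all genes, with a median log2 ratio of 2.47 (−0.03 over all genes). At day 7 only 5 of 10 were (H2-Ab1, Ciita, H2-DMb2, H2-Oa and H2-Ob), against 1.34% of all genes, and at day 14 7 of 10, against 5.76%. Cd74 was 1.92 times higher in cDC2-like cells at day 7 and 1.59 times at day 14. Ciita was 6.50, 2.65 and 4.60 times higher at days 3, 7 and 14. H2-Ab1, Ciita, H2-DMb2, H2-Oa and H2-Ob were called higher in cDC2-like cells on all 3 days, with the largest ratios for the last 3. At day 7, H2-Oa was 18.4 (13.7 to 25.3) times higher in cDC2-like cells, H2-DMb2 12.0 (9.73 to 14.9) times and H2-Ob 10.3 (7.40 to 14.5) times. H2-DMb1 and H2-DMb2 are near-identical copies, so that reads could have been assigned to the wrong one or dropped, and their separate values are uncertain.

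Mature dendritic-like cells, marked by Ccl22 and Fscn1, stood further below cDC2-like cells in H2-DMa and H2-DMb1 than in the chains, by ratios of summed UMIs. H2-DMa was at 232, 109 and 135 CPM at days 3, 7 and 14, the last in 7 cells, against 670 CPM or more in cDC2-like cells on each day. H2-DMb1 was at 152, 52.5 and 135 CPM. The day 7 ratio to cDC2-like cells was 0.128 (0.0972 to 0.166) for H2-DMa and 0.0673 (0.0447 to 0.0975) for H2-DMb1, whereas it was 0.656 for H2-Aa, 0.657 for H2-Eb1 and 0.567 (0.552 to 0.581) for Cd74. H2-DMb2 did not share the low level of its copy, with 204 and 109 CPM at days 3 and 7, at ratios to cDC2-like cells of 1.45 (1.10 to 1.88) and 0.769 (0.577 to 1.01). At day 3, 2 of 10 genes were lower than in cDC2-like cells, H2-DMa and H2-DMb1, a count near the 21.5% of all genes that were lower. At day 7, 6 of 10 were lower (15.7% of all genes), with H2-Ab1 at a ratio of 0.369 (0.352 to 0.386), Ciita at 0.187 (0.134 to 0.253), H2-Oa at 0.389 and H2-Ob at 0.185. At day 14, 5 of 10 were lower (29.1% of all genes). Their cells were uneven, and the median cell had 31227, 12419 and 13021 CPM of the 4 abundant genes at days 3, 7 and 14, against 47135, 48292 and 44469 CPM in cDC2-like cells. At day 14, 3 of the 7 cells held 97.7% of the UMIs of the 4 genes.

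These cells also had less class II RNA at day 7 than at day 3. H2-Ab1 went from 7109 to 3690 CPM, Cd74 from 17151 to 11999 CPM and Ciita from 210 to 78.8 CPM. H2-DMa, H2-DMb1, H2-Ob and Ciita were called lower, 4 of 10 against 3.66% of all genes, and the median log2 ratio was −0.90 over the 10 genes and 0.03 over all genes. The class held 25 cells at day 3 and 57 at day 7.

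B cell-like cells, with 10, 13 and 21 cells at days 3, 7 and 14, carried the inhibitor gene H2-Ob above the level of cDC2-like cells on each day. It was at 611, 477 and 447 CPM, against 40.4, 50.8 and 81.7 CPM in cDC2-like cells, at ratios of 15.1 (9.11 to 24.0), 9.40 (5.95 to 14.2) and 5.47 (3.26 to 9.25). H2-DMb2 was at 444, 324 and 261 CPM, at ratios of 3.14 (1.78 to 5.17), 2.29 (1.33 to 3.70) and 1.71 (0.983 to 2.88), the last not called. H2-Oa was at 278, 115 and 99.2 CPM, called higher than in cDC2-like cells at day 3 alone, at a ratio of 4.70 (2.21 to 8.86), against 1.13 (0.412 to 2.48) at day 7 and 0.927 (0.374 to 2.02) at day 14. The remaining genes stood lower, with ratios at day 7 of 0.343 for H2-DMb1, 0.360 for H2-DMa, 0.365 for H2-Eb1, 0.377 for H2-Ab1, 0.407 for Ciita, 0.432 for H2-Aa and 0.589 for Cd74. At day 7, 2 of 10 genes were higher (11.2% of all genes) and 6 lower (30.3% of all genes). The level of B cell-like cells was similar on the 3 days, on which the 4 abundant genes summed to 23759, 23180 and 22302 CPM. Of all H2-Ob UMIs at day 14, 39.6% came from B cell-like cells, which were 2.04% of the cells.

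In cDC1-like cells at day 7, 1 gene, H2-Ob, was higher than in cDC2-like cells (3.62% of all genes), at a ratio of 2.56 (1.69 to 3.76), and 1, H2-DMb2, was lower (9.57% of all genes), at 0.215 (0.0859 to 0.445). This class had 14 cells, and the other 8 genes lay at ratios between 0.84 and 1.21. Plasmacytoid dendritic-like cells, found in number only at day 7 with 26 cells, showed the reverse of mature dendritic-like cells. H2-DMa was at 785 CPM and H2-DMb1 at 609 CPM, at ratios to cDC2-like cells of 0.926 (0.809 to 1.06) and 0.781 (0.670 to 0.905). Their chains were low, with H2-Aa at 1175, H2-Ab1 at 1026 and H2-Eb1 at 739 CPM and Cd74 at 3692 CPM, at ratios of 0.140, 0.102, 0.0817 and 0.174. H2-DMb2 was seen with 1 UMI. In all, 8 of 10 genes were lower than in cDC2-like cells, against 6.03% of all genes.

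**Figure D3:**
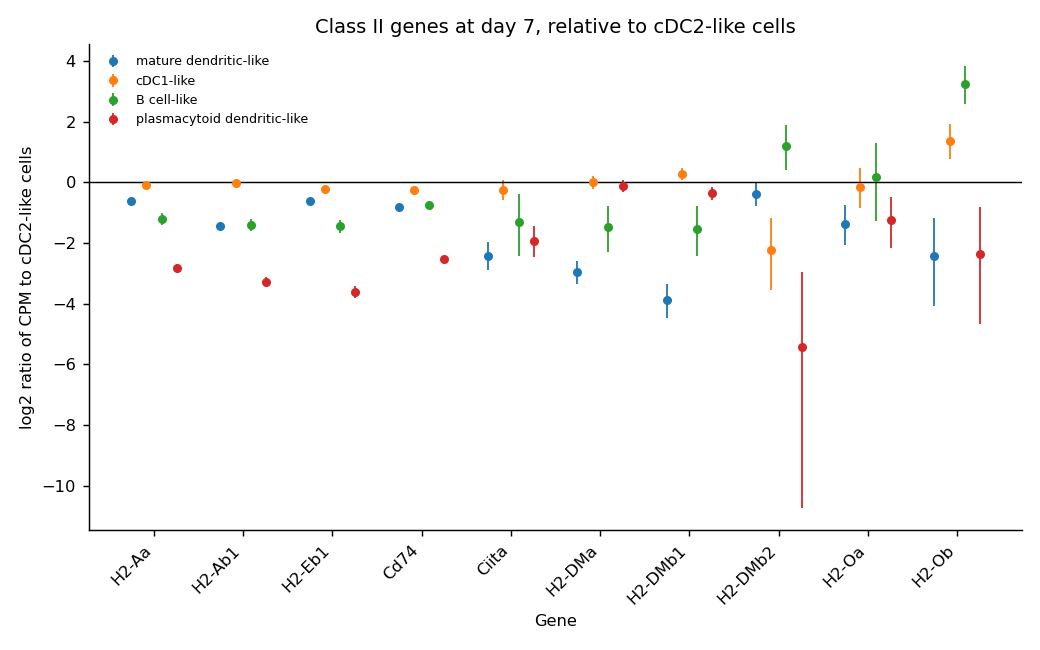
Log2 ratio of CPM to cDC2-like cells at day 7 for each class II gene in mature dendritic-, cDC1-, B cell- and plasmacytoid dendritic-like cells, with exact 95% intervals for counting error. H2-DMa and H2-DMb1 are low in mature dendritic-like cells (ratios 0.128 and 0.0673) and near cDC2-like cells in plasmacytoid dendritic-like cells (0.926 and 0.781), and H2-Ob is high in B cell-like cells (9.40).

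To examine class II RNA outside the immune compartment, the cells of the vessel wall were read beside an immune RNA list of 8 leukocyte genes and beside T cell-, NK cell- and neutrophil-like cells of the same library. Mouse T and NK cells and neutrophils largely lack class II transcription, so that their level serves as the background. In fibroblast-like cells, Cd74 was at 1.35, 18.5, 136 and 9.38 CPM at days 0, 3, 7 and 14, from 3, 101, 800 and 84 UMIs. H2-Ab1 was at 0.451, 13.2, 80.5 and 5.02 CPM, H2-Eb1 at 2.26, 9.73, 85.3 and 8.71 CPM, and H2-Aa at 0, 10.6, 77.5 and 4.91 CPM. All 4 genes were thus lowest at day 0 and highest at day 7, and far below those of cDC2-like cells at days 3, 7 and 14. Ciita was seen with 0, 2, 15 and 3 UMIs in 229, 117, 187 and 493 cells, and 9 of the 15 UMIs came from 1 barcode.

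Against day 0, 3 of 5 measured genes were higher in fibroblast-like cells at day 3 (4.53% of all genes), 4 of 6 at day 7 (4.19%) and none of 5 at day 14 (2.41%). From day 7 to day 14, 4 of 6 were lower (1.69%). Each chain gene and Cd74 had 0 to 5 UMIs at day 0, and H2-DMa had 1. In each comparison with day 0, these genes were thus measured through the UMIs of the later day and could not be called lower. Of the 50 H2-DMa UMIs of day 7, 32 lay in 1 barcode. Ratios to day 0 had wide intervals, for example 100 (34.1 to 487) for Cd74 and 37.8 (16.1 to 117) for H2-Eb1 at day 7. The immune RNA list moved with the class II genes, from 4.51 CPM at day 0 to 56.9, 132 and 24.7 CPM. The macrophage marker list, of which 11 of 17 genes were at 0 at day 0 and 1 of 17 at days 3 and 7, took another course. It was also lowest at day 0 but highest at day 3, with summed levels of 31.6, 382, 227 and 190 CPM. Cells with a UMI of the immune list held 6 of its 70 UMIs at day 0 and 695 of 1703 at day 14. At days 3 and 7 such cells held 1974 of 2079 and 1303 of 1339, and were 88 of 117 and 152 of 187 cells. The macrophage marker list therefore cannot be read as leukocyte RNA alone in fibroblast-like cells. The cDC2 marker list summed to 4.06, 4.59, 17.3 and 4.13 CPM over the 4 days, and Cd209a and Clec10a were at 0 at day 0. The part of these sources in the class II levels was not tested.

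A single barcode held much of the day 7 value. It had 129432 UMIs and 1482 of the UMIs of the 4 genes, or 66.3% of those of the class, with UMIs of 7 of 10 fibroblast, 6 of 6 cDC2 and 7 of 17 macrophage markers. It also held 17 of 18 H2-Oa, 8 of 8 H2-Ob and 5 of 5 H2-DMb2 UMIs of the class. Without the barcode richest in class II in each library, the 4 genes summed to 3.63, 45.7, 131 and 22.8 CPM, and the immune RNA list to 4.54, 50.9, 91.2 and 23.8 CPM. The ratio of day 7 to day 0 was then 36.0 (18.2 to 83.6) for the 4 genes and 20.1 (10.8 to 42.2) for the immune list, and 4 of 5 measured genes were still called higher, where 4.09% of all genes were. At day 3, 2 of 5 were then called higher, H2-Ab1 and Cd74, where 4.51% of all genes were.

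The levels in fibroblast-like cells were set beside those in lymphocytes. The 4 genes summed to 4.06, 52.1, 379 and 28.0 CPM in fibroblast-like cells over the 4 days and to 12.1, 143, 297 and 1483 CPM in T cell-like cells, with the barcodes richest in class II included. At day 7, none of the 8 genes measured was 2-fold higher or lower than in T cell-like cells, where 17.1% of all genes were higher and 11.8% lower, and Cd74 stood at a ratio of 1.34 (1.16 to 1.55). Without the richest barcodes, 2 of 7 genes were lower in fibroblast-like cells at day 7 (12.1% of all genes), Cd74 at a ratio of 0.397 (0.331 to 0.477) and H2-Ab1 at 0.429 (0.353 to 0.523), and the other 2 abundant genes stood at 0.434 (0.341 to 0.553) for H2-Aa and 0.529 (0.418 to 0.671) for H2-Eb1. After thinning to 1000 UMIs, 0 of 208 fibroblast-like cells had a UMI of the 4 genes at day 0 (0 to 1.76%). The share with one was 6.90% (3.02 to 13.1%), 15.7% (10.8 to 21.7%) and 2.69% (1.44 to 4.56%) at days 3, 7 and 14. In T cell-like cells it was 0%, 21.9%, 31.1% (26.4 to 36.1%) and 7.69%, and in neutrophil-like cells 30.0% at day 3 and 42.1% (32.6 to 52.0%) at day 7. The fibroblast-like share was at or below these shares on each day, and no expression was read from it. Before thinning, median UMIs were 8430, 41781, 30095 and 18767 in fibroblast-like and 6852, 5495, 5616 and 5018 in T cell-like cells, and the unthinned shares at day 7 were 87.7% and 81.4%. Thinning took more UMIs from the deeper fibroblast-like cells, and the part of free RNA in either share was not tested. In the fibroblast-like cells without any UMI of the immune list, the 4 genes summed to 3.33, 39.7 (26.2 to 57.8), 105 (76.7 to 140) and 18.7 CPM in the 220, 29, 35 and 342 such cells of days 0, 3, 7 and 14. These cells were shallower than the class, with a median of 7758 UMIs at day 7, so that immune RNA was easier to miss in them.

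Smooth muscle-like cells showed the same order of days, and without the richest barcodes the 4 genes summed to 45.8, 185 and 29.2 CPM at days 3, 7 and 14. None of the 10 genes had a UMI in the 11 cells of day 0. Cd74 was at 13.2, 75.2 and 8.92 CPM at days 3, 7 and 14 and H2-Ab1 at 15.7, 56.2 and 7.30 CPM, both highest at day 7. Of 5 measured genes, 4 were higher at day 7 than at day 3 (1.32% of all genes), with a ratio of 5.72 (3.85 to 8.66) for Cd74 and 5.31 (3.09 to 9.47) for H2-Aa. Without the richest barcodes 3 of 5 were higher (1.275% of all genes). All 4 genes measured were lower at day 14 than at day 7 (2.78% of all genes). The immune RNA list moved alongside, at 50.5, 153 and 19.5 CPM, and macrophage markers summed to 55.6, 121 and 26.0 CPM. Thinned detection of the 4 genes was 12.5%, 27.1% (17.2 to 39.1%) and 4.29%, again under the T cell-like values.

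Endothelial-like cells, with 40, 57 and 18 cells of a median of 1112.5, 1706 and 909.5 UMIs at days 3, 7 and 14, had the highest class II level of the vessel wall at day 7. Cd74 was at 39.8, 693 and 41.8 CPM and H2-Ab1 at 39.8, 358 and 0 CPM, the last values from 0 to 2 UMIs. At day 0, 6 endothelial-like cells held the 4 genes at 334 (108.5 to 780) CPM, from 5 UMIs of 1 barcode. All 6 measured genes were higher at day 7 than at day 3 (11.6% of all genes), with a ratio of 17.4 (8.78 to 40.6) for Cd74. At day 3, H2-Ab1 and Cd74 had 8 UMIs each, H2-Eb1 3, H2-DMb1 1 and H2-DMa 0, so that these genes were measured through their day 7 UMIs. A single barcode of 35228 UMIs, with UMIs of 7 of 8 endothelial and 5 of 6 cDC2 markers, held 58.9% of the UMIs of the 4 genes at day 7. Without the richest barcodes the 4 genes summed to 170 and 689 CPM at days 3 and 7, and the immune RNA list to 195 and 306 CPM. Only these 4 genes were then measured, and all 4 were higher at day 7 than at day 3 (15.2% of all genes). Cd74 stood at a ratio of 5.7 (2.74 to 14.4) and H2-Ab1 at 2.20 (1.08 to 5.22). At day 14 the 4 genes then summed to 63.6 CPM, from 3 UMIs, and the immune list to 3966 CPM. All 187 immune list UMIs of day 14, and 235 of 238 macrophage marker UMIs, lay in 2 of the 18 cells, which had 0 UMIs of the 4 genes. In the endothelial-like cells without any UMI of the immune list, the 4 genes summed to 325 (148 to 616), 1825 (1512 to 2184) and 250 (91.9 to 545) CPM, from 9, 119 and 6 UMIs in 24, 28 and 16 cells at days 3, 7 and 14. These cells were shallower than the class, with a median of 828 UMIs at day 7, so that immune RNA was easier to miss in them. In the whole class, thinned detection was 12.5% at day 3 and 42.1% (26.3 to 59.2%) at day 7, the latter as in neutrophil-like cells. It was also above the T cell-like share of day 7 given above, with overlapping intervals. Without the richest barcodes, 2 of 7 measured genes were higher than in T cell-like cells at day 7 (17.4% of all genes). These were Cd74 at a ratio of 3.17 (2.65 to 3.80) and H2-Aa at 2.19 (1.66 to 2.87). Endothelial-like cells were shallower than T cell-like cells at day 7, with medians of 1706 and 5616 UMIs. An equal number of class II UMIs per cell gives a higher CPM in shallower cells. The part of depth and of free RNA in these ratios was not tested, so that no level above background was read from them.

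T cell-, NK cell- and neutrophil-like cells also carried more class II RNA at day 7 than at day 3. The 4 genes summed to 394 and 2717 CPM in neutrophil-like cells, where 1 barcode held 73.6% of the day 7 UMIs and the remainder summed to 754 CPM. Of 6 genes measured there, 6 were higher (3.68% of all genes). Of these, H2-DMa and H2-DMb1 were measured only through that barcode, which held 14 of their 23 and 23 of their 34 UMIs. Without the richest barcodes 2 of 4 genes were higher (3.49% of all genes), H2-Aa and H2-Ab1, with H2-Eb1 at a ratio of 1.42 and Cd74 at 1.91. The sum was 143, 297 and 1483 CPM in T cell-like cells at days 3, 7 and 14, and 1 barcode with 105 UMIs of cDC2 markers held 93.6% of the last value. Without it, T cell-like cells at day 14 had 97.2 CPM, so that their course too was highest at day 7. In NK cell-like cells the sums were 195, 585 and 504 CPM, and 164, 455 and 91.5 CPM without the richest barcodes. Without the richest barcodes, T cell- and NK cell-like cells were thus highest at day 7, and neutrophil-like cells, measured at days 3 and 7 alone, were higher at day 7. Also highest at day 7 were the vessel wall cells and the library as a whole, in which the 4 genes made up 11229, 17691 and 4835 CPM of all UMIs at days 3, 7 and 14.

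**Figure D4:**
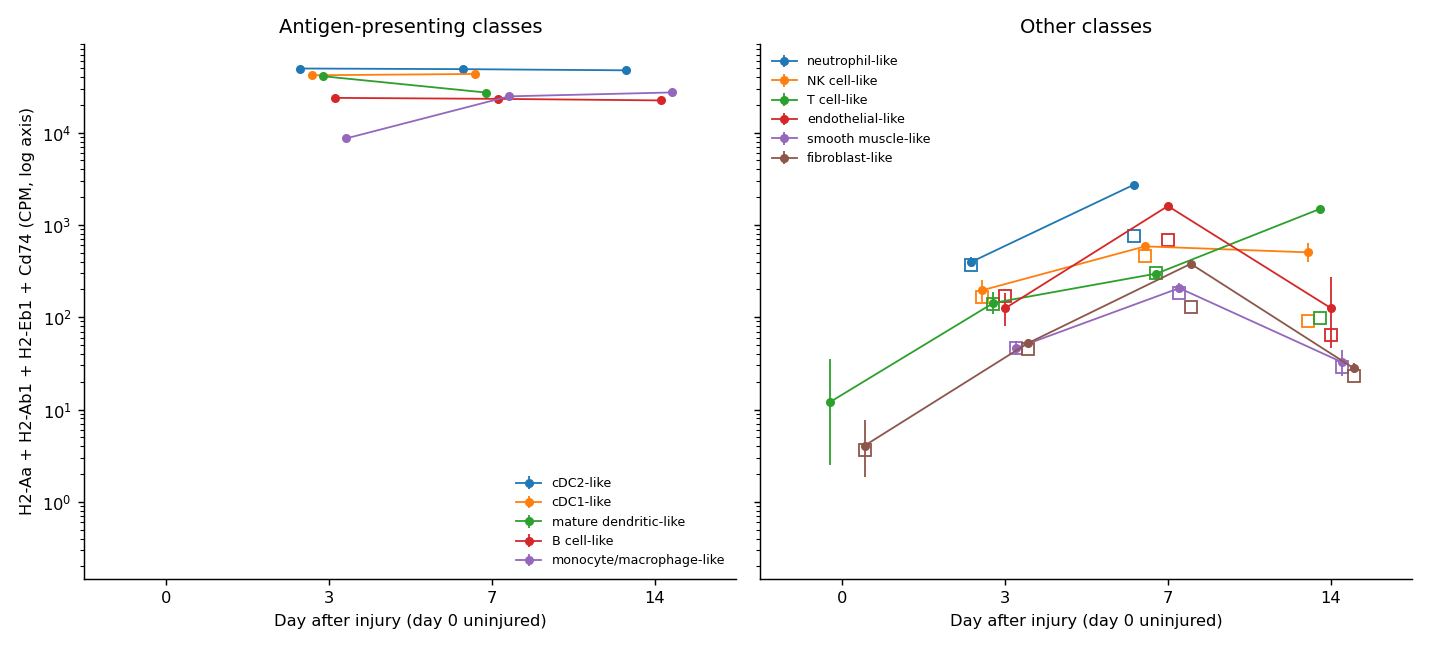
H2-Aa, H2-Ab1, H2-Eb1 and Cd74 summed (CPM, log axis) by day in antigen-presenting (left) and other classes (right) with at least 10 cells; bars are 95% Poisson intervals, open squares leave out the 1 barcode with the most class II UMIs, and values of 0 are not drawn. cDC2-like cells stay between 47240 and 49431 CPM, while fibroblast-like cells go from 4.06 to 379 CPM at day 7, or 131 CPM without that barcode.

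One gene stood apart in fibroblast-like cells. H2-DMb1, which encodes the beta chain of the peptide editor, was at 3.61, 5.87, 9.32 and 8.37 CPM at days 0, 3, 7 and 14, from 8, 32, 55 and 75 UMIs. It did not follow the chains from day 7 to day 14, with a ratio of 0.898 (0.626 to 1.30), where Cd74 was at 0.0692 and H2-Ab1 at 0.0624. Without the richest barcodes these ratios were 1.12 (0.758 to 1.68) for H2-DMb1, 0.201 (0.152 to 0.262) for Cd74 and 0.107 (0.0723 to 0.153) for H2-Ab1. Cells without any UMI of the 4 abundant genes held it at 8.63 (6.44 to 11.3) CPM at day 14, from 52 UMIs in 353 cells, and cells with such a UMI at 7.85 (4.98 to 11.8) CPM. The level was thus similar in both sets of cells.

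H2-DMa, the alpha chain partner, did not share this pattern. Fibroblast-like cells of all libraries held 170 UMIs of H2-DMb1 and 78 of H2-DMa, a ratio of 2.18 (1.66 to 2.89), and 155 and 43 without the richest barcodes, a ratio of 3.61 (2.56 to 5.18). By day, the counts without these barcodes were 8 and 1 at day 0, 32 and 16 at day 3 (2.00, 1.07 to 3.90), 42 and 18 at day 7 (2.33, 1.31 to 4.31) and 73 and 8 at day 14 (9.13, 4.40 to 21.9). With the barcode, day 7 had 55 and 50, a ratio of 1.10 (0.736 to 1.65) that overlapped those of myeloid cells. The ratio was 2.18 (1.03 to 4.93) in smooth muscle-like cells from 24 and 11 UMIs, 0.976 (0.943 to 1.01) in cDC2-like, 0.940 (0.904 to 0.977) in monocyte/macrophage-like and 0.343 (0.204 to 0.559) in T cell-like cells. The fibroblast-like ratio over all libraries therefore lay above those of the myeloid classes that hold most of the class II RNA, beyond counting error. H2-DMb1 remained a low gene there, seen in 3.49%, 19.7%, 18.2% and 12.8% of cells without thinning, and H2-DMb2, the near-identical copy with which it may share reads, had 0, 0, 5 and 0 UMIs.

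**Figure D5:**
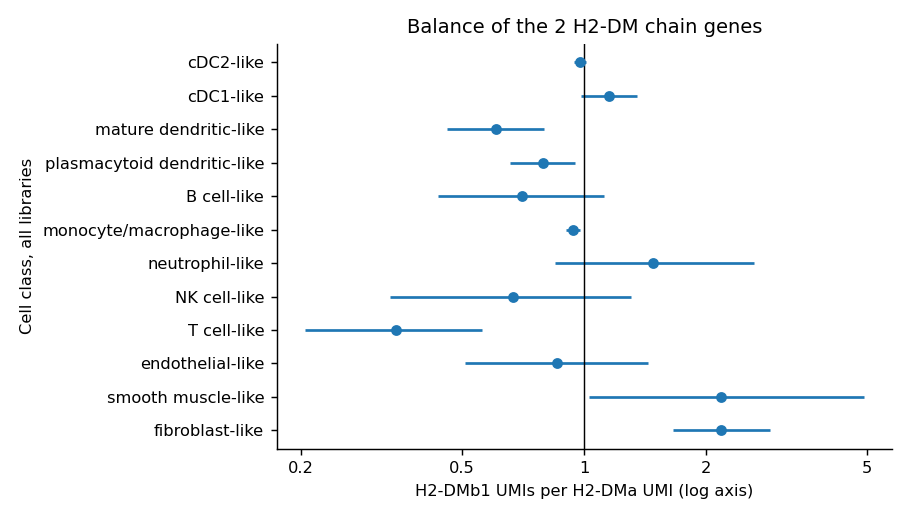
UMIs of H2-DMb1 per UMI of H2-DMa (log axis) in each cell class over all 4 libraries, with exact 95% intervals; the line marks 1. Fibroblast-like cells lie at 2.18, cDC2- and monocyte/macrophage-like cells at 0.976 and 0.940, and T cell-like cells at 0.343.

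Other genes of the pathway were followed from a list of 36, of which 34 were found. Between days 3 and 7, monocyte/macrophage-like cells had 5 of 32 measured genes higher and 1 lower, against 1.25% and 0.883% of all genes. Cd83, which protects surface class II from turnover, went from 66.0 to 265 CPM, the interferon-gamma-induced chemokine Cxcl10 from 124 to 400 CPM, the costimulator Cd86 from 69.5 to 183 CPM and the transcription factor Irf1 from 47.5 to 119 CPM. Cxcl9 went from 0 to 117 CPM, and the cathepsin gene Ctsl from 881 to 390 CPM. In cDC2-like cells, where no class II gene was called between days 3 and 7, 6 of 33 were higher and 1 lower (1.13% and 0.686% of all genes). Cxcl10 was at 32.0 and 261 CPM, Irf1 at a ratio of 2.96, Cd83 at 2.46, Cd86 at 2.22 and Irf4 at 0.349. Cxcl9 was at 1 UMI at day 3 and 229 CPM at day 7. Cxcl9, Cxcl10, Irf1, Cd83 and Cd86 were thus higher at day 7 in both classes. Ifng itself was at 8.09, 363, 182 and 124 CPM in T cell-like cells at days 0, 3, 7 and 14 and at 406, 237 and 436 CPM in NK cell-like cells at days 3, 7 and 14.

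In fibroblast-like cells, 3 of 23 pathway genes were higher and 2 lower at day 3 than at day 0, against 4.53% and 4.28% of all genes. At day 7, 4 of 27 were higher and 3 lower, against 4.19% and 3.58%. Cxcl10 was at 0, 32.5 and 46.8 CPM at days 0, 3 and 7, and Irf1 at 21.7 and 75.6 CPM at days 0 and 7. The receptor gene Ifngr1 was lower, at ratios of 0.372 at day 3 and 0.467 at day 7, as was Ctsl at 0.429 and 0.440. Of the lysosomal genes, Lgmn was higher at day 3, at a ratio of 2.16, and Ctss was at 0 and 13.2 CPM at days 0 and 7, whereas Ctsh was lower at day 7, at 0.490. Without the richest barcodes, 3 of 24 were higher and 3 lower at day 7, against 4.09% and 3.47% of all genes, with Cxcl10 at 41.4 CPM, and Ctss, at 8.15 CPM, no longer called. Cxcl10 was at 95.6 CPM in T cell-, 61.3 CPM in NK cell- and 128 CPM in neutrophil-like cells at day 7, above its level in fibroblast-like cells. The immune RNA and macrophage marker lists, given above, were also higher in fibroblast-like cells at day 7 than at day 0, and their part in these values was not tested. In mature dendritic-like cells at day 7, 7 of 33 were higher and 9 lower than in cDC2-like cells, against 6.74% and 15.7% of all genes. Cd83 stood at 5.36, Cd40 at 4.82, Irf8 at 10.2 and the class II gene H2-Eb2 at 32.0 (5.80 and 186 CPM), while Ifngr1 stood at 0.115, Cxcl9 at 0.0656, Cxcl10 at 0.0718, and March1, whose product removes class II from the surface, was seen with 1 UMI.

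Genes with a like pattern were sought over 28 class-by-day units of at least 20 cells, by the correlation of log2(CPM + 10) with the mean of the 10 genes, as a description. Among 14998 genes, ranks 1 to 7 were taken by H2-Ab1, H2-Aa, H2-Eb1, Cd74, Ciita, H2-DMa and H2-DMb1, whose own values enter that mean, with coefficients from 0.99 to 0.94. The next were Napsa (0.93), the cathepsin that trims the invariant chain Ctss (0.92), Irf5 (0.92), Pkib (0.91), Ly86 (0.90), Cybb, Cd86 and Rnase6 (each 0.88), Necap2 and Pld4 (each 0.85). H2-DMb2, H2-Oa and H2-Ob came at ranks 24, 62 and 95. The units share 4 libraries and differ in depth, and the same class enters on several days.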

How the data were processed

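Single-cell RNA of 4 carotid artery libraries (days 0, 3, 7 and 14, 1 library each) was analysed. The authors deposited raw UMI counts per gene and barcode from a 10x 3′ kit, as called by their Cell Ranger run (3.0.2 per the file headers, whereas the study's methods name another version), without normalization. The mouse build was not given in a usable form, so that coordinates come from the RefSeq table alone. Libraries held 333, 1689, 3001 and 1138 barcodes and 2672722, 18989081, 27973418 and 13329564 UMIs.

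Barcodes with under 200 genes or over 20% mitochondrial UMIs (453) and doublets were removed, the latter by Scrublet score at 0.8% per 1000 barcodes (106 marked). Of barcodes found in a pair of libraries, the copy with at most 0.1 of the other's depth was removed (214, a step chosen after seeing the data). Libraries were clustered together in scanpy 1.11.5 (2000 variable genes without those reported here, 30 components, 15 neighbours, Leiden resolution 1, leidenalg 0.10.2). CPM of summed counts carry exact Poisson intervals, ratios exact conditional binomial intervals and shares Clopper-Pearson intervals. Calls needed 2-fold on CPM + 10 among genes with at least 20 UMIs over both sums, and pathway genes also an interval clear of 1. The ratio computation was tested on simulated data. Named are all 10 genes, pathway genes past that call (at most 8 per comparison by size) and the 10 genes of most similar pattern. The class II genes, the lists, the markers and the rules were chosen with earlier results of these data known. Alternatives changed the cell filter, doublet rate, clustering, pseudocount, summing, thinning depth, shared barcodes and the richest barcode. A macrophage cluster and a pathway gene are not reported here, though they enter the totals and counts.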

Additional observations from a re-analysis of the deposited data

Results flagged for a closer look

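For the class II genes listed here, the ratio of day 7 to day 3 lay below 1 in mature dendritic-like and above 1 in monocyte/macrophage-like cells. Among them, only Ciita, H2-DMa and H2-DMb1 were called in both classes. The difference between the classes was not tested because each day had 1 library. The ratios in the former and the latter were 0.760 and 2.89 for H2-Aa, 0.519 and 2.86 for H2-Ab1, 0.642 and 3.04 for H2-Eb1, and 0.700 and 2.78 for Cd74. They were 0.374 and 2.93 for Ciita, 0.469 and 2.30 for H2-DMa, 0.344 and 2.29 for H2-DMb1, and 0.532 and 4.09 for H2-DMb2. Mature dendritic-like cells numbered 25 and 57 on these days.

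Class II RNA was also present in barcodes that entered no comparison. In barcodes that failed the gene or mitochondrial filter, H2-Aa, H2-Ab1, H2-Eb1 and Cd74 summed to 1217, 4899 and 1856 CPM at days 3, 7 and 14 (161, 252 and 37 barcodes), against 0 in the 3 such barcodes of day 0. In barcodes that passed this filter and were marked as doublets the sum was 13256, 14009 and 7479 CPM (22, 56 and 10 barcodes), against 0 in the 1 such barcode of day 0.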

How the results depend on the processing

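Of 144 counts, shares and origins recomputed under an alternative, 103 kept their value within the limits set, and of 468 ratios of single genes 432 kept their direction and side of the 2-fold threshold, 20 fell below it, 15 passed it and 1 reversed. Leaving out the richest barcode, Leiden resolutions of 0.5 and 2, a doubled doublet rate and a filter of 500 genes and 10% mitochondrial UMIs moved by at most 1.5 times the counts of class II genes in fibroblast-like cells against day 0, in smooth muscle-, endothelial- and monocyte/macrophage-like cells against day 3, in cDC2- against monocyte/macrophage-like cells at day 7, and in mature dendritic- (day 7) and B cell-like (day 14) against cDC2-like cells. In other comparisons, leaving out the richest barcode took the count higher at day 7 than at day 3 from 6 of 6 to 2 of 4 measured genes in neutrophil-like cells (3.49% of all genes without that barcode). In fibroblast-like cells it went from 4 to 2 of 6 measured genes (1.77% of all genes without that barcode). The count of endothelial- over T cell-like cells at day 7 went from 6 to 2 of 7 measured genes (17.4% of all genes without that barcode). The count lower in fibroblast- than in T cell-like cells at day 7 went from 0 of 8 to 2 of 7 measured genes (12.1% of all genes without that barcode). H2-DMb1 in endothelial-like cells, day 7 against day 3, reversed to a log2 ratio of −1.16 when CPM were averaged over cells instead of summed. The number of class II genes higher in fibroblast-like cells at day 14 than at day 0 became 1 with that average, 2 without doublet removal and 5 with 1 CPM added. Among cells without a UMI of the immune list it became 0 at day 3 and 0 at day 7, where no gene kept 20 UMIs, and was 1 in smooth muscle-like and 2 in endothelial-like cells, day 7 against day 3. Apart from leaving out the richest barcode, the share of all genes was not computed for counts under alternatives. Clustering each library alone gave 8 genes higher in cDC2- than in monocyte/macrophage-like cells at day 7. It put the share of class II UMIs at days 3, 7 and 14 at 73.1%, 35.2% and 23.1% for dendritic-like and 25.6%, 55.2% and 59.2% for monocyte/macrophage-like cells, and at 1.55% and 0.615% for non-immune cells at days 7 and 14. Without doublet removal these were 70.1%, 45.3% and 27.8%, then 28.8%, 51.5% and 64.1%, and 0.302%, 1.08% and 0.897%. With the copies of shared barcodes kept, dendritic-like cells gave 64.8%, 48.7% and 32.3% and monocyte/macrophage-like cells 28.0%, 45.6% and 59.9%. Without thinning, detection was 91.98% and 98.15% in monocyte/macrophage-like cells at days 3 and 7, 69.2%, 87.7% and 28.4% in fibroblast-like cells at days 3, 7 and 14, and 81.4% in T cell-like cells at day 7. At 2000 UMIs it was 74.8%, 91.7%, 26.3% (fibroblast-like, day 7) and 46.8% (T cell-like, day 7). The cause of the other moves was not tested. No paired analysis was possible because each day has 1 library. Without replicates no value separates day from library, levels of under 10 CPM rest on few UMIs, and B cell-, cDC1-, mature and plasmacytoid dendritic-like cells are few.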

Other observations

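The unnamed cells of day 7, mostly from clusters led by Snhg9 with a median of 805.5 UMIs in the 438 cells, held Cd74 at 4153 CPM and 1.18% of the UMIs of the 4 abundant class II genes of that library. The shallow copies of shared barcodes, removed before the analysis, held these 4 genes at 25.6, 120 and 2120 CPM in the libraries of days 0, 3 and 14.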
